A study of Homo sapiens with 6 samples.

Results

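This account follows 52 genes of mitosis: the cyclins and kinases that drive cells into division, the proteins of the centromere and kinetochore, the spindle checkpoint, and the machinery of anaphase, the spindle and cytokinesis. They were chosen by symbol from what their products do, with earlier results of these data known. Condensin and the kinesins were left out except CENPE, a kinesin of the kinetochore. Each symbol matched 1 of the 60612 Ensembl identifiers in the count files. All 52 passed the filter on low counts, among 17854 tested genes, and the lowest count of any of them in a library was 272. The cells are SKBR3, a breast epithelial cancer line with amplified ERBB2, the gene of the HER2 receptor. Of the 6 RNA-seq libraries, 3 come from untreated SKBR3 (parental below) and 3 from SKBR3 that had been given trastuzumab, an antibody against HER2, at increasing concentrations for 30 weeks (trastuzumab below, SKBR3_HR in the labels). The 2 groups share the cell line, the labels state no other agent or allele, and they do not say whether drug was present at harvest. Separate cultures for the replicates are not stated either, and p-values then measure the spread between these libraries, which may be technical.

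Cells make most mitotic proteins afresh in each cycle. Their genes are held down in resting and G1 cells by the DREAM complex and switched on in late S and G2 by MYBL2 and then FOXM1, through the CHR promoter element and the CCAAT boxes bound by NF-Y. The RNA of these genes in bulk cells therefore follows the share of cells in G2 and mitosis as well as the RNA made per cell. Fewer cells in those phases and less RNA in each of them cannot be told apart in these libraries.

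Promoters are shown first, since the CHR element and the CCAAT box are each shared widely among these genes. RefSeq promoter windows of 300 bases (250 before the start and 50 from it on, GRCh38.p14) matched 42 of the 52 genes, with 56 windows because some genes have several starts. The genes not matched were FOXM1, AURKA, BIRC5, BUB3, TTK, CENPH, CENPM, KNL1, UBE2C and TPX2. The CHR core was searched as TTTGAA or TTCGAA and the NF-Y box as CCAAT, both on either strand, so that they can also read TTCAAA and ATTGG. A CHR core stood in 35 of 56 windows (62.5%), against 16.4% of all 35116 windows. CCAAT stood in 42 windows (75%, against 34.6%), and both together in 29 (51.8%, against 6.38%). Windows of 1 gene can overlap, and a match is a string of letters, not a bound site. The bases from -120 to -1 before the start are printed 5′ to 3′ for 6 genes, chosen after their values were seen to show different responses: CCNB2, MKI67 and HMMR, which fell, PLK1 and ESPL1, which fell and rose in only 1 of the 2 fits described below, and CENPE, which fell in both. Capitals mark CHR cores and CCAAT boxes, which share bases in MKI67 (TTTGAATTGG) and, for 2 opposite boxes, in HMMR (CCAATTGG).
CCNB2 (chr15:59105026-59105145, plus strand): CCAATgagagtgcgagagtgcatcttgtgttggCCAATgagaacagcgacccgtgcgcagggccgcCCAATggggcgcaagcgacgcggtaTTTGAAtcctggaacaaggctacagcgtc
MKI67 (chr10:128126424-128126543, minus strand): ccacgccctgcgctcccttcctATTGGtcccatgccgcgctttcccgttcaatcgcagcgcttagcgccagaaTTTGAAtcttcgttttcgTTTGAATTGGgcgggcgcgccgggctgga
HMMR (chr5:163460512-163460631, plus strand): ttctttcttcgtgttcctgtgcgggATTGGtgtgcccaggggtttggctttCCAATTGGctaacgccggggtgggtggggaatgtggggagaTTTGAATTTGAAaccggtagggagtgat
PLK1 (chr16:23678769-23678888, plus strand): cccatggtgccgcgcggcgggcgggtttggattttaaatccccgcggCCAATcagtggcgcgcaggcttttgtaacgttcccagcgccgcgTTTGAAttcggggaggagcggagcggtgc
ESPL1 (chr12:53268179-53268298, plus strand): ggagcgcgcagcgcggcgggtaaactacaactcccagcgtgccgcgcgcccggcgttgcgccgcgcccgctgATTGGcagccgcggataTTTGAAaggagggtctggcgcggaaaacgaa
CENPE (chr4:103198344-103198463, minus strand): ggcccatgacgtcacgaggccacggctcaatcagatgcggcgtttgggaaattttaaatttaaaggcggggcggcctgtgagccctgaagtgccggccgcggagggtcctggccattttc
CCNB2 held 3 CCAAT boxes upstream of its CHR core in these bases, and PLK1 and ESPL1 held 1 of each. CENPE held neither in the printed bases or in its whole window.

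RNA of most mitotic genes was lower in the trastuzumab libraries. Of the 52 genes, 37 fell, 3 rose and 12 did not pass the test, where fell and rose mean an adjusted p below 0.05 in edgeR's quasi-likelihood test with Benjamini-Hochberg adjustment over all tested genes. Among all tested genes 25.4% fell and 23.9% rose by the same rule (49.3% in either direction). The median log2 fold change (trastuzumab minus parental) was -0.51 over the 52 genes and -0.0057 over all tested genes. For 38 genes every trastuzumab library lay below every parental library (29.2% of all tested genes) and for 4 above (28.3%). Counts of the 52 genes together came to 4639, 4451 and 4646 CPM (counts scaled to a common library size) in parental replicates 1 to 3 and to 3726, 3579.7 and 3555 CPM in trastuzumab replicates 1 to 3, so the groups did not overlap. Relative to the parental mean, the median gene stood at -0.35, -0.52 and -0.47 (log2) in the 3 trastuzumab libraries, and the parental libraries ranged from -0.047 to 0.049.

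The size of a fall went with the base composition of the gene, here as across all genes. Among the 52 genes, log2 fold changes ranked with GC content of the transcript at a Spearman coefficient of 0.77 and with the length of the exons at -0.61. For 13569 tested protein-coding genes these coefficients were 0.55 and -0.29. These values run across genes, which share the same 6 libraries and are no replicates. The 52 genes had a median GC content of 42.6%, against 48.9% for protein-coding genes, and a median exonic length of 3879.5 bases, against 5008. A second fit therefore removed, from each library, a smooth trend on GC content and length, and is called corrected below; where real changes are linked to these properties it removes them as well. With it 36 of the 52 genes fell, 1 rose and 15 did not pass (19.4% of 17649 genes fell and 18.7% rose), and the median was -0.39. Corrected CPM of all trastuzumab libraries lay below all parental ones for 38 genes (24.9% of all genes in that fit) and above for 2 (24%). The same 29 genes fell in both fits, and 25 of them also fell in each of the other 26 settings run, from other scaling and tools to leaving out each library.

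**Figure D1:**
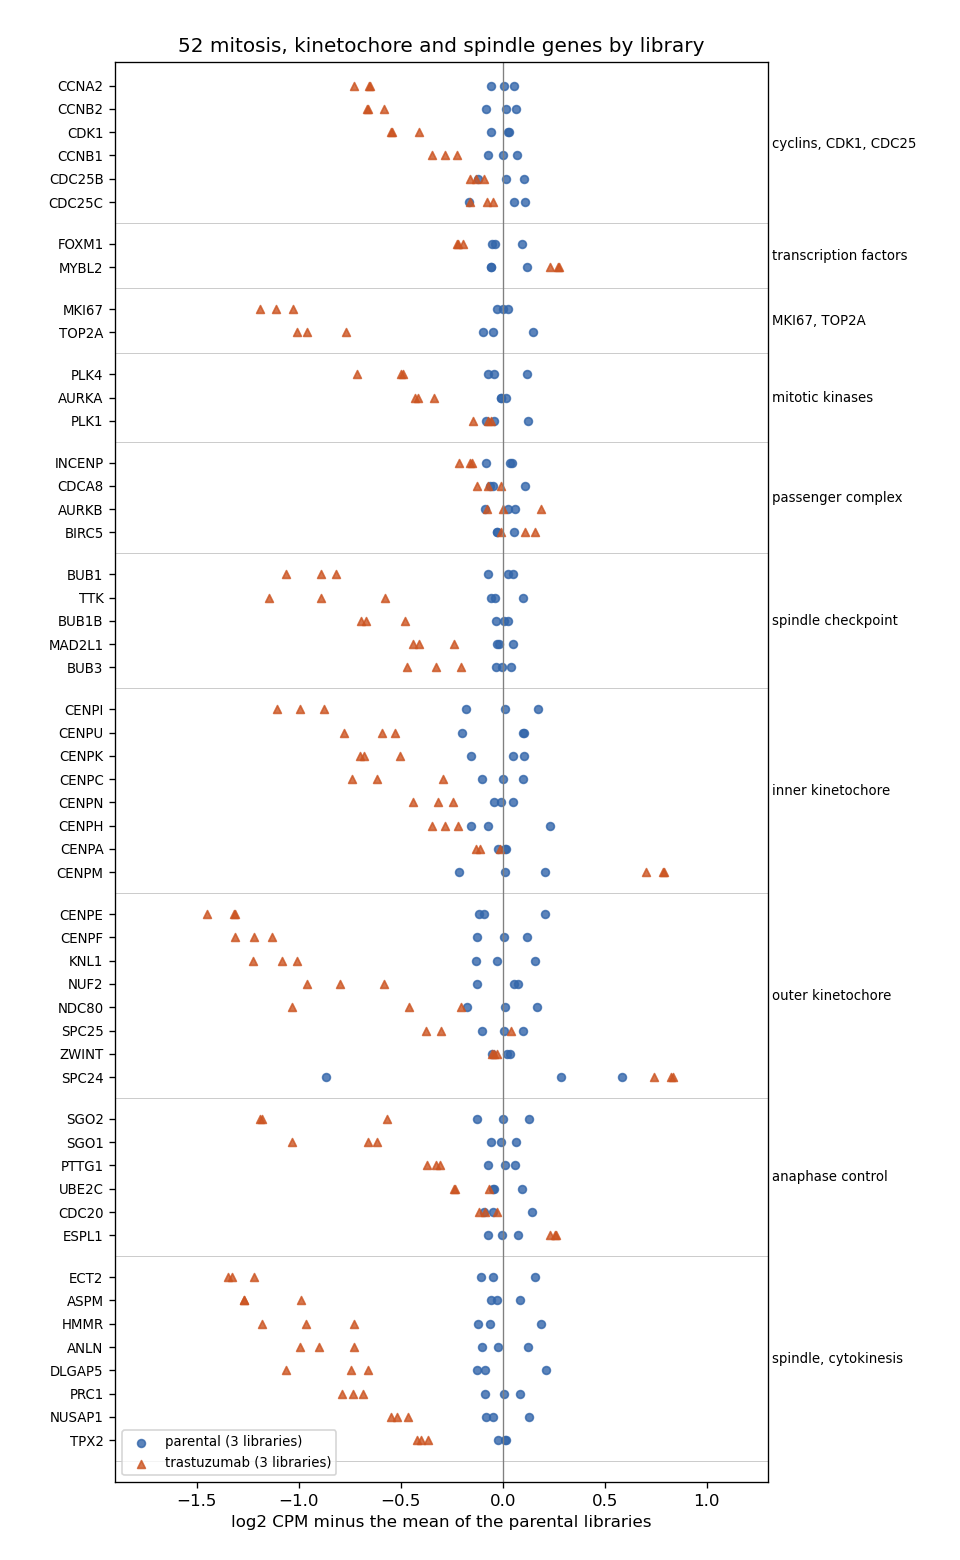
Each row is 1 gene, and each point 1 library, placed at its log2 CPM minus the mean log2 CPM of the 3 parental libraries (circles parental, triangles trastuzumab); genes are grouped by role. The triangles lie to the left of all circles for 38 genes and to the right for 4, and the gene with the widest parental spread is SPC24.

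The 2 fits differed at both ends of the GC scale, which can be seen by cutting the protein-coding genes into 5 equal bins of GC content. In the bin of lowest GC content (30.2 to 41.1%) lay 21 of the 52 genes, with a median of -0.85, where all genes of the bin had a median of -0.47. The next 9 genes had -0.61 against -0.30, the 11 in the middle bin -0.33 against 0.0038, the 7 in the fourth 0.04 against 0.25 and the 4 in the highest bin (58.5% and more) 0.06 against 0.37. Thus 45 of the 52 genes lay below the median of their own bin, a description that leaves length aside. Falls without correction were common among all protein-coding genes of low GC content. From the lowest bin to the highest, 65.5%, 50.6%, 26.1%, 8.73% and 4.72% of them fell. In the same order 20 of 21, 8 of 9, 7 of 11, 1 of 7 and 1 of 4 of the mitotic genes fell. Of the genes that fell without correction, 8 no longer passed with it: CCNB1, CDK1, PLK4, BUB3, MAD2L1, CENPC, CENPK and NDC80. Conversely 6 genes fell only with it: CDC25B, PLK1, AURKB, CDCA8, ZWINT and CDC20. MYBL2 rose in one fit and fell in the other.

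**Figure D2:**
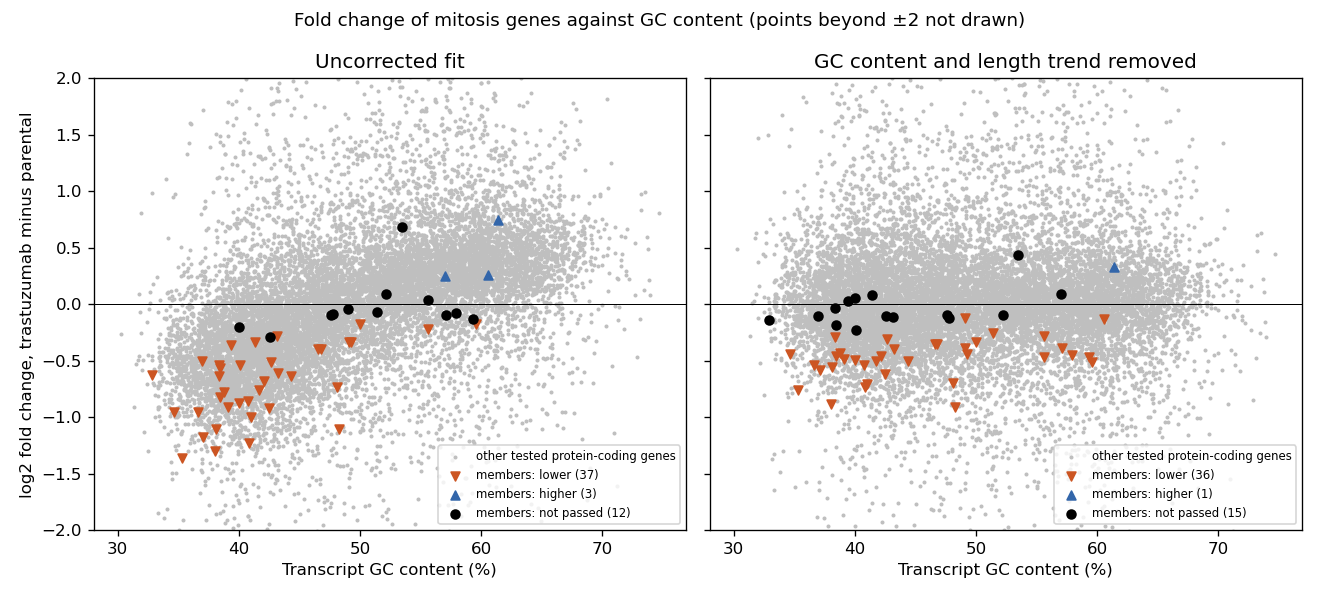
The log2 fold change (trastuzumab minus parental) is drawn against transcript GC content in percent, without correction on the left and with it on the right; grey points are other tested protein-coding genes, triangles pointing down are genes of the 52 that fell (37 and 36), triangles pointing up those that rose (3 and 1), and black circles those that did not pass. The grey cloud slopes upward on the left and lies level on the right, and most of the 52 genes lie in its lower part in both.

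Among the genes that define dividing cells in tissue sections and in expression signatures, MKI67 and TOP2A both fell. MKI67 encodes the Ki-67 antigen that coats mitotic chromosomes (ENSG00000148773, hg38 chromosome 10, 128096659 to 128126385). It stood at 224.9, 220.5 and 228 CPM in the parental and at 109.9, 98.6 and 104 CPM in the trastuzumab libraries, a 2.16-fold fall (log2 fold change -1.11 ± 0.049 SE, adjusted p = 5.74e-11; corrected -0.91 ± 0.044). The groups were far apart for this gene. TOP2A, the topoisomerase that untangles sister chromatids, went from 400.0, 349 and 337 to 212, 179.5 and 186 CPM (-0.91 ± 0.077, adjusted p = 4.11e-06; corrected -0.49 ± 0.050). Its parental libraries spread more than those of MKI67, with no overlap between the groups.

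The mitotic cyclins and CDK1 fell, by less than MKI67. CCNA2, the cyclin of S phase and G2, went from 71.6, 66.3 and 69.2 to 43.7, 41.6 and 43.9 CPM (-0.68 ± 0.059, adjusted p = 9.3e-08; corrected -0.46 ± 0.053). CCNB2, a B-type cyclin, fell from 47.3, 50.7 and 52.3 to 31.6, 31.6 and 33.5 CPM, with a log2 fold change of -0.64 ± 0.068 and -0.50 ± 0.065 corrected. Both cyclins were lower in every trastuzumab library. CCNB1 and CDK1 form the kinase that starts mitosis, and both hung on the fit. CCNB1 had 139, 126 and 133 CPM against 113, 109 and 104 CPM, and CDK1 143, 134 and 142 against 105, 95.6 and 95.6 CPM. None of these groups overlapped, and the falls of -0.29 ± 0.052 and -0.50 ± 0.052 became -0.11 ± 0.048 (adjusted p = 0.0881) and -0.10 ± 0.052 (adjusted p = 0.147) with correction; CCNB1 passed there without parental replicate 2 (adjusted p = 0.0157). Of the phosphatases that activate CDK1, CDC25B had 213.5, 234.7 and 248.9 CPM against 217, 212 and 208 CPM. It showed the opposite pattern: -0.13 ± 0.053 (adjusted p = 0.0527) and, corrected, -0.47 ± 0.047 (9.66e-07), and it passed uncorrected without parental replicate 1 (0.00564). CDC25C stood at 12.97 ± 1.26 and 12.1 ± 0.477 CPM (mean ± SD, n = 3, as in all such pairs below) and passed in neither fit (-0.10 ± 0.11).

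The transcription factors of the programme moved apart in the uncorrected fit. FOXM1, which drives G2 and M genes, went from 205, 202 and 224 to 183, 180.1 and 179.7 CPM (-0.22 ± 0.048, adjusted p = 0.00124; corrected -0.47 ± 0.044). MYBL2, or B-MYB, which opens the same genes earlier in the cycle, went from 426, 427 and 482 to 535, 536 and 521 CPM (0.26 ± 0.049, adjusted p = 0.000365). It lies on chromosome 20 (ENSG00000101057, 43667019 to 43716496) and has a GC content of 60.5%, among the highest of the 52. Its corrected value was -0.13 ± 0.043 (adjusted p = 0.0262), and that corrected call was lost without parental replicate 3 (0.0703) or trastuzumab replicate 2 (0.113) or 3 (0.105).

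Of the kinases of the centrosome and spindle, AURKA fell in both fits. Aurora A matures the centrosomes, and its RNA went from 219, 218 and 222 to 174, 165 and 163 CPM (-0.39 ± 0.045; corrected -0.35 ± 0.042). PLK1, the polo kinase needed from mitotic entry to cytokinesis, had 141, 137 and 159 CPM against 138, 139.5 and 132 CPM. Those groups overlapped (-0.09 ± 0.056, adjusted p = 0.186), and PLK1 fell only with correction (-0.38 ± 0.051, 1.87e-05). PLK4, which sets centriole number, fell from 12.05, 10.6 and 10.8 to 6.78, 7.85 and 7.92 CPM (-0.57 ± 0.12), with a corrected value of -0.19 ± 0.11 (adjusted p = 0.221).

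The chromosomal passenger complex corrects faulty attachments and guides cytokinesis. Without correction 1 of its 4 genes fell, near the 25.4% of all tested genes, and their median was -0.016. That gene was INCENP, the scaffold, which went from 75.2, 82.3 and 81.6 to 71.2, 68.7 and 71.7 CPM (-0.18 ± 0.054, adjusted p = 0.0117). Leaving out parental replicate 2 (adjusted p = 0.0639) or trastuzumab replicate 2 (0.0599) ended this call. BIRC5, or survivin, had 105.8, 105.9 and 112 CPM against 107, 120.4 and 117 CPM, with overlap (0.09 ± 0.054, adjusted p = 0.2; corrected -0.09 ± 0.045, 0.127). AURKB, the kinase, stood at 26.4 ± 1.43 and 27.2 ± 2.58 CPM and CDCA8, or borealin, at 54.1 ± 3.55 and 51.5 ± 2.13 CPM. All but BIRC5 fell with correction, where 19.4% of all genes fell. Corrected log2 fold changes were -0.51 for INCENP, -0.28 for AURKB and -0.25 for CDCA8. The corrected call of AURKB was lost without trastuzumab replicate 3 (adjusted p = 0.0598).

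All 5 spindle checkpoint genes, whose products hold anaphase until every kinetochore is attached, fell without correction and 3 of them with it. Their GC content was 39.4 to 43.2%, within the 2 lowest of the bins above. There 65.5% and 50.6% of all protein-coding genes fell without correction. BUB1, a kinase of the kinetochore, went from 67.3, 66.1 and 61.8 to 37.0, 35.1 and 31.1 CPM (-0.92 ± 0.072, adjusted p = 2.81e-08; corrected -0.62 ± 0.066). BUB1B, or BubR1, fell from 62.8, 61.8 and 60.3 to 44.2, 38.7 and 38.0 CPM (-0.61; corrected -0.39). TTK, or MPS1, which starts the signal, fell from 13.4, 12.2 and 12.03 to 5.66, 8.4 and 6.74 CPM (-0.85; corrected -0.54). None of the 3 overlapped between the groups. BUB3 and MAD2L1, the partners that carry the signal, had -0.33 and -0.36 without correction and 0.08 and 0.03 with it, so these calls depend on the fit.

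The inner kinetochore genes moved in both directions. These encode CENPA, the histone H3 variant that marks centromeres, and the protein network that binds it. CENPI had the largest fall, from 9.67, 11.1 and 12.3 to 5.98, 5.09 and 5.51 CPM (-0.996 ± 0.13; corrected -0.71 ± 0.14). CENPU went from 18.5, 18.5 and 15.01 to 11.4, 10.1 and 11.95 CPM (-0.64; corrected -0.29), and CENPK from 14.1, 12.3 and 14.7 to 9.63, 8.42 and 8.53 CPM (-0.63; corrected -0.14). These products belong to the network on CENPA chromatin, and none of the groups overlapped. CENPC, which binds that chromatin directly, went from 6.03, 5.24 and 5.62 to 4.59, 3.37 and 3.66 CPM (-0.54; corrected -0.03). CENPN, another reader of it, went from 33.5, 32.2 and 31.4 to 26.0, 23.9 and 27.3 CPM (-0.33; corrected -0.39). CENPM rose, from 19.6, 16.8 and 22.5 to 31.7, 33.7 and 33.5 CPM (0.75 ± 0.094, adjusted p = 5.12e-06). It was the one gene of the 52 that rose in both fits (corrected 0.33 ± 0.088, adjusted p = 0.00775), lies on chromosome 22 (ENSG00000100162, 41938721 to 41947164) and has the highest GC content of the 52, 61.4%. CENPA itself had 28.6, 29.3 and 29.2 CPM against 28.8, 26.5 and 26.9 CPM (-0.08 ± 0.072; corrected -0.12 ± 0.066), and CENPH 10.9 ± 1.58 against 8.91 ± 0.395 CPM (-0.29 ± 0.12). Neither passed. CENPC no longer passed once parental replicate 1 (adjusted p = 0.055) or trastuzumab replicate 2 (0.0647) was left out, and CENPH passed without parental replicate 2 (0.0361). With correction CENPU did not pass without parental replicate 1 (0.0654) or 2 (0.0825) or trastuzumab replicate 2 (0.0947).

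Outer kinetochore genes, which bind spindle microtubules, had 5 falls among 8 in each fit, and 3 genes did not pass. Among all genes 25.4% fell without correction and 19.4% with it. CENPE, CENPF, KNL1 and NUF2 fell in both fits, NDC80 only without correction and ZWINT only with it. All of these but ZWINT lie in the lowest bin of GC content. In that bin 65.5% of protein-coding genes fell without correction and 23.2% with it. CENPE, the kinetochore motor that carries chromosomes to the spindle equator (ENSG00000138778, chromosome 4, 103105806 to 103198409), went from 16.3, 13.01 and 13.2 to 5.68, 5.15 and 5.65 CPM, a 2.58-fold fall (-1.37 ± 0.12, adjusted p = 1.56e-07; corrected -0.76 ± 0.11). CENPF, a large coiled-coil protein (ENSG00000117724, chromosome 1, 214603195 to 214664588), went from 100.7, 93.1 and 85.1 to 42.3, 37.3 and 39.8 CPM (-1.22 ± 0.069; corrected -0.73 ± 0.052). KNL1, the scaffold that recruits the BUB proteins, fell from 31.1, 27.4 and 25.5 to 13.8, 13.2 and 11.95 CPM (-1.11; corrected -0.55). In each of these genes the groups lay well apart.

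Within the NDC80 complex, the main microtubule coupler, the 4 subunits differed. NUF2 fell from 14.3, 14.5 and 12.6 to 7.95, 9.22 and 7.09 CPM (-0.78 ± 0.12; corrected -0.43 ± 0.12). NDC80 had 11.98, 9.45 and 10.7 CPM against 9.26, 5.22 and 7.77 CPM (-0.53 ± 0.18, adjusted p = 0.0262), a call lost with correction (0.343) and without parental replicate 1 (0.107) or 3 (0.0826) or trastuzumab replicate 2 (0.083) or 3 (0.0568). SPC25 stood at 17.5 ± 1.21 and 15.2 ± 2.4 CPM (-0.20 ± 0.11), and passed without trastuzumab replicate 1 (adjusted p = 0.0166). SPC24 had 9.37, 4.22 and 11.5 CPM in the parental and 13.7, 12.9 and 13.7 CPM in the trastuzumab libraries. Parental replicate 2 was far below the others, and the log2 fold change of 0.68 ± 0.39 (adjusted p = 0.238) became 0.36 (0.029) without it. With correction and all libraries SPC24 had 0.44 ± 0.40 (adjusted p = 0.478). ZWINT, which links KNL1 to the checkpoint, had 267, 251 and 264 CPM against 253, 256 and 251 CPM (-0.04 ± 0.043, adjusted p = 0.47), and -0.13 ± 0.039 corrected (0.0161), a call lost without parental replicate 1 (0.0752) or trastuzumab replicate 2 (0.0678) or 3 (0.102).

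Among the genes of anaphase, the shugoshins, which guard centromeric cohesion, fell. SGO1 went from 16.0, 16.6 and 17.5 to 10.9, 8.15 and 10.6 CPM (-0.76 ± 0.12; corrected -0.50 ± 0.11), and SGO2 from 10.5, 9.6 and 8.77 to 6.48, 4.2 and 4.23 CPM (-0.95 ± 0.17; corrected -0.44 ± 0.15). The corrected call of SGO2 was lost with any library left out except trastuzumab replicate 1 (adjusted p from 0.0654 to 0.148). ESPL1, or separase, the protease that cuts cohesin, went the other way, from 99.6, 104 and 110.3 to 125, 123 and 125 CPM (0.25 ± 0.050, adjusted p = 0.000539; corrected 0.09 ± 0.043, 0.101). PTTG1, or securin, its inhibitor, fell from 67.0 ± 3.11 to 53.1 ± 1.19 CPM (-0.34; corrected -0.44). CDC20, which activates the anaphase-promoting ubiquitin ligase, had 141, 146 and 166 CPM against 142, 148 and 139 CPM. These overlapped (-0.08 ± 0.058, adjusted p = 0.28), and CDC20 fell with correction (-0.45 ± 0.048, 1.42e-06). UBE2C, the ubiquitin-conjugating enzyme of that ligase, had 95.9, 96.2 and 106.1 CPM against 94.7, 84.2 and 84.5 CPM, with no overlap but a narrow gap (-0.18 ± 0.059, adjusted p = 0.019; corrected -0.33 ± 0.058). Its uncorrected call was lost without parental replicate 3 (0.0857) or trastuzumab replicate 2 (0.0983) or 3 (0.101).

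Genes of the spindle and cytokinesis fell without exception, 8 of 8 in both fits. ECT2, the exchange factor that switches on RhoA at the division furrow (ENSG00000114346, chromosome 3, 172750682 to 172821474), went from 151, 131 and 126 to 58.2, 54.0 and 53.2 CPM, a 2.47-fold fall (-1.30 ± 0.066, adjusted p = 3.51e-10; corrected -0.88 ± 0.048). ASPM, a spindle pole protein known from inherited microcephaly, fell from 36.9, 33.4 and 34.1 to 17.5, 14.4 and 14.4 CPM (-1.17; corrected -0.58). ANLN, or anillin, of the contractile ring went from 195, 176 and 167 to 108, 89.7 and 95.8 CPM (-0.87; corrected -0.49). PRC1, which bundles the midzone of the anaphase spindle, fell from 109.6, 97.5 and 104 to 62.3, 60.0 and 64.4 CPM and was little moved by the correction (-0.74 and -0.69). The other 4 act in building the spindle. HMMR went from 19.0, 15.4 and 16.0 to 10.1, 8.56 and 7.39 CPM (-0.95; corrected -0.54), and DLGAP5 from 25.6, 20.8 and 20.3 to 13.97, 13.2 and 10.6 CPM (-0.82; corrected -0.46). NUSAP1 went from 108, 93.7 and 95.7 to 71.7, 67.8 and 69.3 CPM (-0.51; corrected -0.31), and TPX2, the activator of Aurora A, from 183, 178 and 183 to 140.6, 137 and 135 CPM (-0.40; corrected -0.35). In all 8 genes each trastuzumab library lay below each parental one (29.2% of all tested genes).

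At least 2-fold falls were found in 6 of the 52 genes (3.93% of all tested genes), MKI67, CENPE, CENPF, KNL1, ASPM and ECT2, in the uncorrected fit. With correction the largest fall was 1.88-fold, in MKI67, and no gene reached 2-fold. All of the 6 but ECT2 are the 5 longest of the 52, with 9444 to 12807 exonic bases, which was noticed after their values were seen. The next in length, ESPL1 with 8890, CENPC with 8613 and BUB3 with 8300 bases, had 0.25, -0.54 and -0.33. After correction the coefficient with length was still -0.46 for the 52 genes, and -0.026 for protein-coding genes.

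Per length, the 52 genes spanned a wide range of RNA levels, here on the scale of the deposited FPKM (fragment counts divided by gene length and library size). MYBL2 led with 144 ± 8.85 FPKM in the parental and 164 ± 2.88 FPKM in the trastuzumab libraries, followed by ZWINT with 98.9 ± 3.01 and 91.5 ± 0.828 FPKM. UBE2C (69.6 ± 3.33), CDC20 (67.7 ± 5.27) and AURKA (67.6 ± 0.101) came next in parental cells, and their levels lay within each other's spread. The lowest were SGO2 (1.36 ± 0.13), CENPE (1.28 ± 0.173) and CENPC (0.593 ± 0.0416 FPKM). Between neighbours in this order the gap exceeded the sum of their SDs in 13 of 51 cases. Summed over the 52 genes, the mean level was 1137 FPKM in parental and 926 FPKM in trastuzumab libraries. MKI67, a widely used marker, stood at 15.8 ± 0.178 and 6.96 ± 0.396 FPKM.

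**Figure D3:**
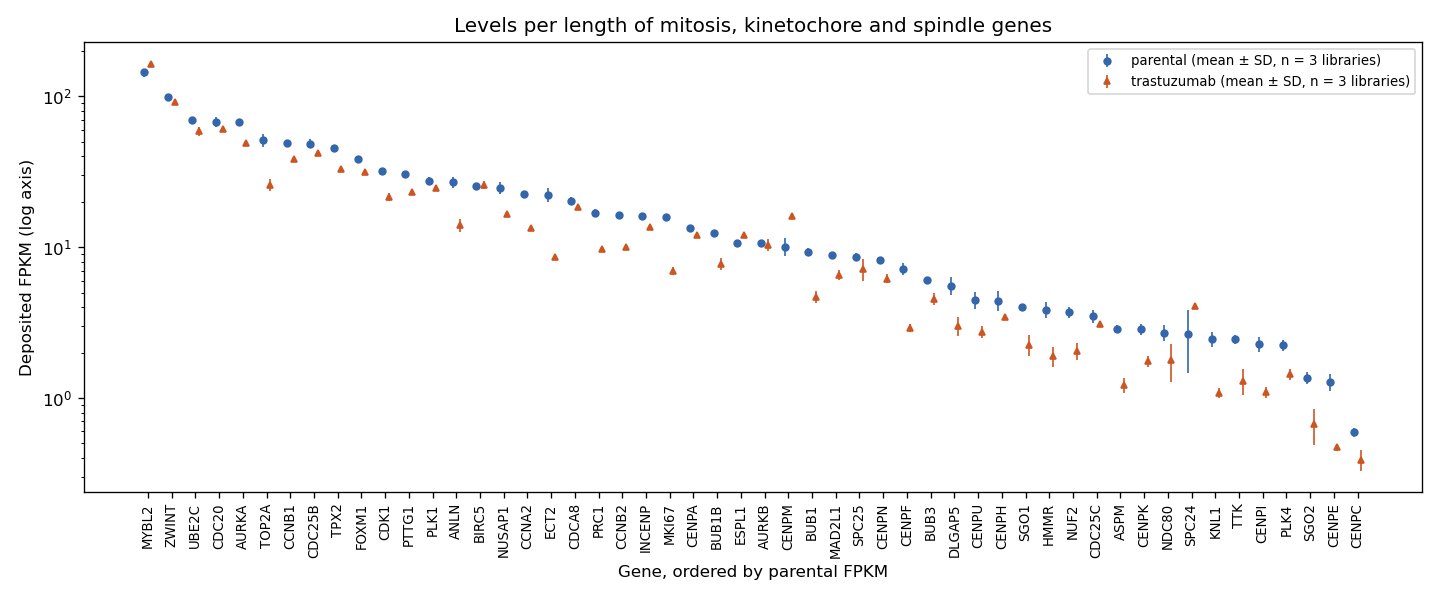
Deposited FPKM of the 52 genes on a log axis, ordered by the parental mean, with circles for parental and triangles for trastuzumab (mean ± SD over 3 libraries). From MYBL2 at 144 FPKM to CENPC at 0.593 FPKM, most triangles lie below their circles; CENPM, ESPL1, MYBL2 and SPC24 lie visibly above.

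Other cell cycle genes were read from the same fit. Of all tested genes 25.4% fell and 23.9% rose (19.4% and 18.7% with correction). Most mitotic kinesins and condensin subunits fell: 10 of 13 kinesins fell and 2 rose (corrected 11 and none, median -0.74 and -0.46), and 7 of 8 condensin subunits fell and 1 rose in either fit (median -0.58 and -0.39). KIF18A, a chromosome-aligning motor, fell from 5.7 ± 0.977 to 2.2 ± 0.565 CPM and SMC2, a condensin core subunit, from 31.3 ± 3.03 to 14.3 ± 1.07 CPM. The corrected values were -0.95 for KIF18A and -0.66 for SMC2. KIF20B (-1.15; corrected -0.59), KIF14 (-1.06; corrected -0.59), NCAPG (-0.96; corrected -0.59) and SMC4 (-0.93; corrected -0.39) fell as well. Of 30 other kinetochore and centromere genes 20 fell and 5 rose (median -0.36), or 13 and 2 with correction (median -0.21). BORA, an activator of Aurora A, fell from 9.28 ± 1.13 to 4.66 ± 0.367 CPM (-0.99; corrected -0.73), as did CKAP2 (-0.94; corrected -0.52) and CENPQ (-0.88; corrected -0.47).

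Replication, G1 and ubiquitin ligase genes included falls and rises, and their counts are read beside the 25.4% of all tested genes that fell and the 23.9% that rose (19.4% and 18.7% with correction). Among 31 genes of DNA replication 11 fell and 7 rose, or 10 and 4 with correction, with a median of -0.053 and -0.052. POLA1, of the replicative primase complex, fell from 37.4 ± 1.42 to 19.4 ± 2.3 CPM (-0.94; corrected -0.65). CDC7, a kinase that fires origins, had -0.87 (corrected -0.53) and RFC3, of the clamp loader, -0.58 (corrected -0.26). Of 15 genes of G1 control 2 fell and 6 rose (corrected 4 and 3). CDKN1A, the p21 inhibitor that halts the cycle, fell from 6.53 ± 0.629 to 3.5 ± 0.789 CPM (-0.90 ± 0.18; corrected -1.25), while CDK4, the kinase of G1, rose from 135 ± 9.86 to 183 ± 4.6 CPM (0.44; corrected 0.20). CDKN2A, a CDK4 inhibitor, rose without correction (0.41) and stood at 0.05 with it. Subunits and partners of the anaphase-promoting complex had 7 falls and 6 rises among 17 (corrected 4 and 4), with CDC27 (-0.84; corrected -0.33), ANAPC1 (-0.74; corrected -0.40) and ANAPC4 lowest without correction. ANAPC4 had -0.55, and -0.02 with correction (adjusted p = 0.938).

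For the next lists too, 25.4% of all tested genes fell and 23.9% rose (19.4% and 18.7% with correction). Controls of mitotic entry fell in 7 and rose in 2 of 13 cases (corrected 4 and 1). There WEE1, which restrains CDK1, fell from 73.9 ± 2.6 to 51.1 ± 3.7 CPM and stood at 0.00093 with correction, ARPP19 had -0.71 (corrected -0.20) and MASTL -0.47 (corrected -0.27). Of 21 genes of the DREAM complex, E2F and NF-Y 14 fell and 4 rose (corrected 8 and 2), among them E2F5 (-1.10; corrected -0.69), RB1 (-0.74; corrected -0.26) and RBL1 (-0.70; corrected -0.32). Whether any list differs from another was not tested.

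**Figure D4:**
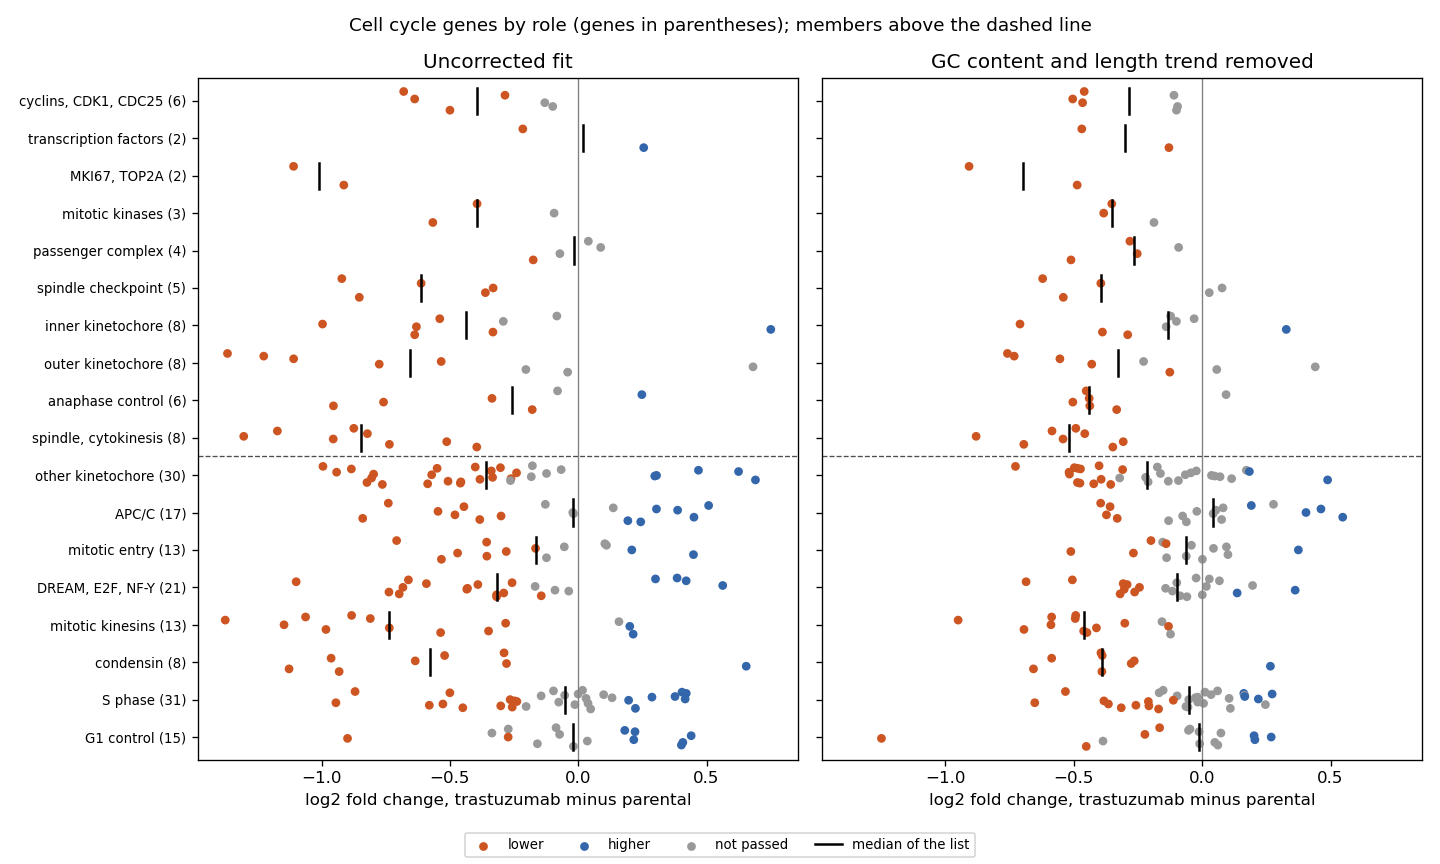
Each point is the log2 fold change (trastuzumab minus parental) of 1 gene, in rows by role, uncorrected on the left and corrected on the right; orange genes fell, blue genes rose, grey genes did not pass, and black bars are medians. Above the dashed line are the 52 genes, whose spindle and cytokinesis row is orange throughout; replication and G1 genes spread on both sides of 0.

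Totals ranged from 71015138 to 82857810 counts per library, and 3 counts, the limit that a count of 0 allows, equal 0.0362 to 0.0422 CPM (counting error only). The epithelial markers KRT8, KRT18, KRT19, EPCAM, ERBB2 and GATA3 were all expressed, at 18076 to 19819.6 CPM together in parental and 20834 to 22406 CPM in trastuzumab libraries. They differed in direction: ERBB2 rose in both fits (0.48; corrected 0.34), while KRT8 (-0.17; corrected -0.36) and EPCAM (-0.19; corrected -0.18) fell in both. KRT19 rose without correction (0.21) and fell with it (-0.20). KRT18 fell only with correction (-0.43), and GATA3 passed in neither fit. Of 6 fibroblast markers, summed at 9.19 to 19.2 and 6.06 to 10.9 CPM, 1 fell (COL1A1). Sums of 5 endothelial markers were 28.5 to 31.7 and 78.9 to 86.0 CPM, nearly all CDH5, which rose, while TEK was at 0 in the trastuzumab libraries. Sums of 6 immune markers were 14.0 to 16.5 and 40.9 to 47.9 CPM, nearly all CD68, which rose, with MS4A1 and LYZ at 0 in the parental libraries. Their part in the mitotic values was not tested. Tested neighbours overlap 12 of the 52 genes, and for CENPA, CENPN and PRC1 one of them shares the strand. The library kit keeps the strand, but whether the counting used it is not stated, so reads of such neighbours cannot be told apart. Annotated copies reached 2.04 and 2.32 CPM for CDC20 (CDC20P1) and 1.83 and 1.2 CPM for UBE2C (UBE2CP5) in the 2 groups, and at most 0.293 CPM for the others, and the counts of these genes are uncertain where reads were split with a copy.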

How the data were processed

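STAR 2.4.2a and the build hg38 are named in the submitters' processing notes. Libraries were made from total RNA with a directional kit, per the labels' protocols. The program, strand setting and annotation behind the counts are not stated. The authors deposited raw counts per gene for 60612 identifiers and FPKM values for 33686 of them. Symbols came from a gene name table. Positions, transcript GC content (longest transcript) and exonic length came from GENCODE 29. CPM were computed from the counts with TMM-scaled library sizes. Tests used edgeR 4.0.16 in R 4.3.3: TMM, filterByExpr, robust quasi-likelihood F test, no covariate, Benjamini-Hochberg over all tested genes, threshold 0.05. The corrected fit adds offsets from splines (5 degrees of freedom each) on GC content and length. The scripts were tested on simulated counts. The members and lists were chosen with earlier results of these data known. Named genes are the 52 members, in full the 2 most abundant per role and those with an absolute log2 fold change of at least 0.5 or opposite calls, and up to 3 called genes of at least 1 CPM per other list; other members were added for completeness. Alternatives were other scalings, filters, DESeq2 1.42.0, limma-voom, limma 3.58.1 on log2(FPKM + 1) and log2(FPKM + 0.1), with at least 1 FPKM in 3 libraries or no filter, corrections, the replicate block and leaving out libraries.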

Additional observations from a re-analysis of the deposited data

How the results depend on the processing

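Of the 52 mitotic genes, 25 fell in each of the 28 settings. Without the correction for GC content or for GC content and length, 33 to 44 genes fell and 2 to 4 rose over the settings run. The same 37 genes fell with relative log expression scaling, DESeq2, limma-voom and the replicate block, and 35 of them with upper quartile scaling. With limma-voom CDC25B fell as well, which made 38.
Single genes turned sign under some settings, and the cause was not tested. ZWINT was at 0.0115 with upper quartile scaling. AURKB was at -0.0158 with library totals alone, -0.0301 with log2(FPKM + 1), filtered or not, -0.0329 with log2(FPKM + 0.1), -0.0986 with the length correction, and between -0.0367 and 0.0952 with 1 library left out.
With GC content and length corrected, 1 mitotic gene and 17 other cell cycle genes rose, the mitotic median was -0.386, with MYBL2 at -0.13, AURKB at -0.282, BIRC5 at -0.0918, BUB3 at 0.0775, MAD2L1 at 0.0276 and SPC25 at 0.0568. With GC content alone 1 and 17 rose, the median was -0.352, with MYBL2 at -0.0915, AURKB at -0.22, BIRC5 at -0.0655, MAD2L1 at 0.0387, SPC25 at 0.173 and ESPL1 at -0.0408. With log2(FPKM + 1) and no filter 17 other cell cycle genes rose.
Leaving out each library in turn gave a mitotic median between -0.54 and -0.418. The same with the correction for GC content and length is given in the order parental replicates 1 to 3, then trastuzumab replicates 1 to 3. In each case 1 mitotic gene rose, and the mitotic medians were -0.387, -0.407, -0.376, -0.416, -0.353 and -0.338. Other cell cycle genes that rose numbered 13, 16, 20, 14, 16 and 17, and those that fell 53, 63, 52, 62, 48 and 49. All genes that rose numbered 2819, 2902, 3281, 2900, 2831 and 2954, and all that fell 2993, 3164, 3164, 3220, 2868 and 2920. MYBL2 stood at -0.154, -0.177, -0.0957, -0.17, -0.116 and -0.118, AURKB at -0.242, -0.332, -0.283, -0.284, -0.328 and -0.221 and BIRC5 at -0.103, -0.106, -0.0653, -0.058, -0.11 and -0.0968. BUB3 stood at 0.0399, 0.0765, 0.0764, 0.00734, 0.12 and 0.0812, MAD2L1 at 0.00898, 0.00683, 0.0497, -0.0324, 0.0511 and 0.0628, SPC25 at 0.0187, -0.00966, 0.134, -0.0724, 0.106 and 0.149 and CENPC at -0.0279, -0.0936, -0.00677, -0.168, 0.0306 and 0.013.
Parental and trastuzumab libraries share replicate numbers. Deviations from the group means correlated at -0.0056, 0.051 and 0.049 between same-numbered libraries, and at -0.055 to 0.0048 between the others. Replicates 2 and 3 correlated best with their own numbers. Trastuzumab replicate 1 did not, so the numbers were not read as pairs. With the replicate block 37 mitotic genes fell and 3 rose. With the block and the correction 36 fell and 1 rose, 17 other cell cycle genes rose, the median was -0.386, with MYBL2 at -0.129, AURKB at -0.282, BIRC5 at -0.0923, BUB3 at 0.0758, MAD2L1 at 0.0263 and SPC25 at 0.0514.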
